A study of Mus musculus with 18 samples.

Results

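The genes described here are 38 genes of DNA replication and the S phase of the cell cycle, read in C3H10T1/2 cells, a mouse embryo fibroblast line that can be turned into fat cells. They were chosen by name, for what their proteins do, but with earlier results of these data known. Each was matched to the probes that the array annotation assigns to that gene symbol alone. Of the 38 genes, 36 had such a probe. Pole has no entry in the annotation used here, and Tyms is left out because its probes also carry a pseudogene's symbol. The probe with the highest mean log2 signal over all arrays stood for each gene, and 33 of the 36 genes were bright enough to be tested. The labels describe 8 groups, which combine an adipogenic mix called IDMB, epidermal growth factor (EGF) and the dioxin TCDD in every way, on 18 arrays. Cells had 10 nM EGF for 24 h, and TCDD, which activates the aryl hydrocarbon receptor, for 72 h, also at 10 nM. IDMB held 1 µM BRL49653 (rosiglitazone, an agonist of the fat cell regulator PPARG), dexamethasone at 1 µM, the phosphodiesterase inhibitor IBMX at 0.5 µM and insulin at 10 µg/mL, and was present for 24 h. The group called UT, letters that the labels do not spell out, received none of these agents. UT and IDMB had 3 arrays each, and EGF, TCDD, EGF+TCDD, IDMB+EGF, IDMB+TCDD and IDMB+EGF+TCDD had 2 each. In all groups the cells were collected 72 h after their last serum and 24 h after they reached confluence, and each array carried mRNA pooled from 6 cultures. The arrays of a group are the replicates as labelled, and the labels do not say whether their cultures were grown apart, so p-values measure the spread between these arrays, which may be partly technical.

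Cells copy their DNA once in each division. Before S phase the origin recognition complex and Cdc6 load the ring of Mcm proteins onto DNA, and cyclin E and its kinase help to set the rings working as the replicative helicase. DNA polymerase alpha and primase then start each new strand, the clamp loader Rfc places the sliding clamp Pcna, Rpa coats single strands, and Fen1 and Lig1 join the pieces of the lagging strand, while ribonucleotide reductase and thymidine kinase supply the building blocks. Many of these genes are transcribed as cells pass from G1 into S phase under control of the E2F factors, and fibroblasts that stop at confluence or without serum switch them down. Growth factors such as EGF can bring such cells back into the cycle, and preadipocytes leave it again before they become fat cells. In RNA from whole cultures, a larger share of cells in S phase and more RNA per cell cannot be told apart.

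Promoter sequence was not used to choose these genes. The RefSeq promoter table (build GRCm38.p6, 250 bases before to 50 bases after each start) held 40 promoters for 33 of the 38 genes, and Pole, Mcm4, Ccne2, Rfc2 and Prim2 had no entry. Both strands were searched for an E2F motif, spelled TTTCCCGC, TTTCGCGC, TTTGCCGC or TTTGGCGC, and it stood in at least 1 promoter of 11 of the 33 genes (33.3%), against 704 of all 27025 genes in the table (2.6%). The 11 genes were Mcm3, Mcm5, Mcm6, Mcm7, Cdc6, Orc1, Pola1, Pold1, Rfc3, Lig1 and Uhrf1. The letters CCAAT stood on either strand in 21 of the 33 genes (63.6%) and in 41.1% of all genes. A match describes these letters in this window and is not a binding site. The promoters of Mcm3 and Mcm7, helicase subunits with 2 matches each, and of Cdc6, with 1, are shown because these genes are among those called with EGF below, and that of Tk1 because it has the largest difference with EGF and these letters are not in its window. Capitals mark the matches.

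Mcm3, chr1:20820263-20820562, minus strand: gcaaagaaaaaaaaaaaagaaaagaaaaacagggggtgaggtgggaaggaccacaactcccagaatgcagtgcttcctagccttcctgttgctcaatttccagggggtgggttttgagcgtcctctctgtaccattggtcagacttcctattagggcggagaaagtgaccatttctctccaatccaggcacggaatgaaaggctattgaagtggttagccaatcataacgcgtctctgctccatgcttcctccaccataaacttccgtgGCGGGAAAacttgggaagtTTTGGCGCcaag

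Mcm7, chr5:138171834-138172133, minus strand: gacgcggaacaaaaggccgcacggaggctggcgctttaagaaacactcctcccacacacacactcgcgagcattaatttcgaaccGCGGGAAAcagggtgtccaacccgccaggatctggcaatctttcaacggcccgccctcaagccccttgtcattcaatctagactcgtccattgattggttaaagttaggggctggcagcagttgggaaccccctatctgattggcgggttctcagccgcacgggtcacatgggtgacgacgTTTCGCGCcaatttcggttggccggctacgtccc

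Cdc6, chr11:98907901-98908200, plus strand: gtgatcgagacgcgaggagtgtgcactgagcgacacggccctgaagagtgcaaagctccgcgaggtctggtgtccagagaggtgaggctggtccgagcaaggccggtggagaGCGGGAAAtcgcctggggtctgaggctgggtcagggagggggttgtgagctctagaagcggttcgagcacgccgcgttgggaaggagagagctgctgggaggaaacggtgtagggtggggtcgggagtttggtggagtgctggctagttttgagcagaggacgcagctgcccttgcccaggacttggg

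Tk1, chr11:117825965-117826264, minus strand: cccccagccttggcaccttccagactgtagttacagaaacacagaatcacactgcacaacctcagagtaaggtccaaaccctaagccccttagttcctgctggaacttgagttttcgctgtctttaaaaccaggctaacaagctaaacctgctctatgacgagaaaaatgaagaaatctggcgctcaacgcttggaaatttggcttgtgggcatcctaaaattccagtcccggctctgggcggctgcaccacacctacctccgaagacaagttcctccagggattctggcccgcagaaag

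Each array's deposited signal intensities had been brought to a common mean, with array medians of 793.4 to 935.7. Values under 143.5, the 20th percentile of all intensities, were set to that floor, below which levels have no order, and log2 was taken. Differences are log2 changes from limma, fitted over all 18 arrays, with standard errors (SE), and p-values were adjusted by Benjamini-Hochberg over all 7134 probes tested. A gene is called higher or lower where the adjusted p is under 0.05. With 2 or 3 arrays a group, their number sets the precision. Each call of a replication gene that is given with its adjusted p was refitted with each array left out in turn. Where it was then lost, the adjusted p of that fit is given after its own, or the loss is stated. Genes known to respond to the agents were read as a check. Fosl1, an EGF-induced transcription factor gene, was called higher against UT with EGF (log2 3.44), but also with TCDD (2.85) and IDMB (3.27), and differed by 0.10 (adjusted p = 0.922) between IDMB+EGF and IDMB, so it does not mark EGF alone. Dusp6 and Egr1, also read for EGF, were called higher with EGF (3.42 and 2.52) and not called with TCDD or IDMB against UT. Between IDMB+EGF and IDMB, Egr1 differed by 3.25 (limma adjusted p = 0.00973) and Dusp6 by 1.87 (adjusted p = 0.0578). Tiparp, an aryl hydrocarbon receptor target, was called with TCDD (3.88) and with IDMB (2.27) against UT. Cyp1a1, Cyp1b1 and Nqo1, also read for TCDD, were called higher with TCDD (2.21, 0.97 and 2) and not called with IDMB. Against IDMB, IDMB+TCDD had Tiparp, Cyp1b1 and Nqo1 called higher, and Cyp1a1 was not called (0.75). Fkbp5, a glucocorticoid target, was called with IDMB (4.29) and, by less, with EGF (1.32) and TCDD (1.48). Of the others read for IDMB, Per1 was called higher with IDMB alone of these agents (1.28), and Sgk1 with IDMB (2.71) and EGF (1.89). Of 10 fibroblast markers 9 passed the filter on dim probes, with Vim the exception, against 2 of 6 macrophage, 1 of 5 endothelial and 1 of 5 epithelial markers (Csf1r and Cd14, Pecam1, and Cdh1). The ratio of Gapdh control probes at the 3' and 5' ends, a sign of RNA integrity, was 1.52 at most in UT, 1.43 to 2.47 with EGF, 0.854 to 0.919 with TCDD and 2.34 to 2.71 with EGF+TCDD. In the same order with IDMB it was 1.19 to 1.73, 1.75 to 1.76, 1.05 to 1.09 and 2.13 to 2.86. The actin ratio was 1.23 to 1.93 on the 9 arrays without IDMB and 1.80 to 3.80 on the 9 arrays with it. Fits that hold each ratio as a covariate are given with the results.

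The replication genes were high on the arrays with EGF or TCDD in medium without IDMB, and lower on most arrays with IDMB. The mean log2 intensity of the 33 genes was 11.13, 10.60 and 11.07 on the UT arrays and 11.99 and 12.18 with EGF. It was 12.03 and 11.36 with TCDD, and 11.95 and 12.20 with EGF+TCDD. All 6 of these treated arrays lay above the UT arrays, the TCDD arrays farther apart from each other than the EGF arrays. With IDMB the mean was 10.85, 10.81 and 10.82 alone, 11.02 and 11.15 with EGF, 11.28 and 10.44 with TCDD, and 11.41 and 11.05 with both. Of these 9 arrays IDMB+EGF+TCDD 1 alone, at 11.41, reached the lowest array with EGF or TCDD and no IDMB (TCDD 2, 11.36).

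**Figure D1:**
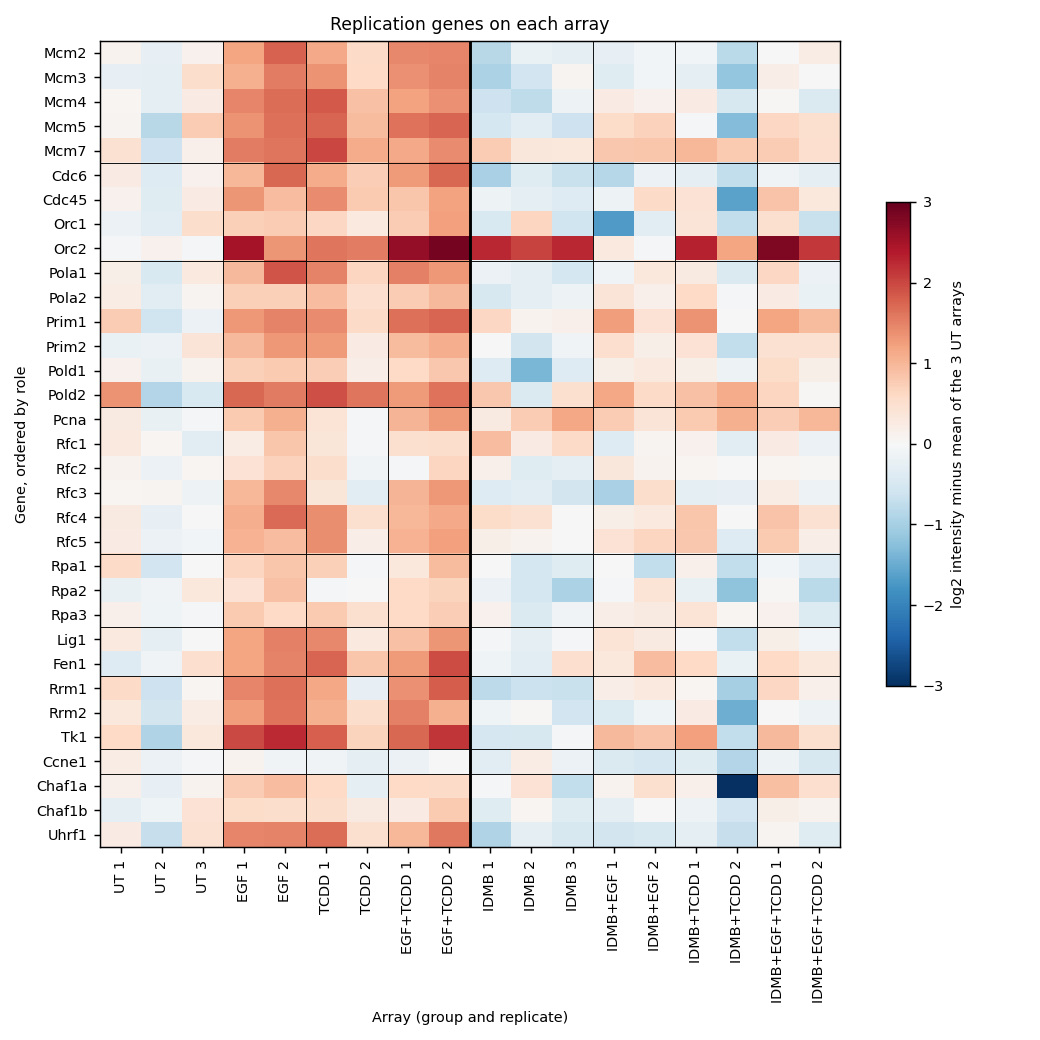
Log2 intensity of each of the 33 tested genes (rows, ordered by role) on each of the 18 arrays (columns, ordered by group), minus the mean of the 3 UT arrays, in colour. The arrays with EGF, TCDD or EGF+TCDD without IDMB are higher for most rows, those with IDMB are paler and lie on both sides of UT, and Orc2, whose UT values are at or near the floor, stands out in its own pattern.

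EGF alone went with higher levels of genes of the helicase, origin loading, strand initiation, the clamp and its loader, strand joining, nucleotide supply and maintenance of DNA methylation, while no tested gene of Rpa, cyclin E or histone loading was called. Of the 33 genes 16 were called higher against UT and 0 lower (limma; at an unadjusted p under 0.05, 26 higher and 0 lower), while 3.59% of all tested probes were called higher. On both EGF arrays 31 of the 33 lay above all 3 UT arrays, which held for 19.6% of all probes. The median log2 difference of the 33 was 1.31, against 0.00 over all probes, and the highest were 2.10 (Tk1) and 1.91 (Orc2). The called genes were Mcm2, Mcm3, Mcm4, Mcm5, Mcm7, Cdc6, Orc2, Pola1, Rfc4, Pcna, Lig1, Fen1, Rrm1, Rrm2, Tk1 and Uhrf1. The calls rested on few arrays: without UT 2 the count was 3, without EGF 1 it was 5 and without EGF 2 it was 0 (limma; 24 at an unadjusted p under 0.05, with 14 probes called in all), and 0 of the 16 were called in each of the 18 fits that left out 1 array. With the Gapdh ratio as a covariate 5 were called and the median was 1.22, and with the actin ratio 7 were called and the median was 1.32.

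TCDD alone also went with higher levels, for fewer called genes, and the difference between the agents was not tested. Against UT 5 of the 33 genes were called higher and 0 lower (limma; 20 and 0 at an unadjusted p under 0.05), and 3.88% of all probes were called higher. They were the helicase subunits Mcm4, Mcm5 and Mcm7, the DNA polymerase delta subunit Pold2 and the flap nuclease Fen1. The median log2 difference of the 33 was 0.80, against 0.03 over all probes, and 19 of the 33 lay above all UT arrays on both TCDD arrays, against 22.0% of all probes. Pold2 read 3647, 780.2 and 1040.5 on the UT arrays, 4701 and 4239.7 with EGF, 5485 and 4380.3 with TCDD and 3503 and 4429 with EGF+TCDD. UT 1 was far above the other UT arrays, and both TCDD arrays were above it. Pold2 had the largest difference with TCDD, 1.77 (SE 0.48, adjusted p = 0.0357; 0.152 without UT 2, 0.0785 without UT 3, 0.203 without TCDD 1 and 0.117 without TCDD 2). Mcm7 differed by 1.55 (SE 0.29, adjusted p = 0.00589; 0.0959 without TCDD 1). TCDD 1 carried more of the difference than TCDD 2: without TCDD 1 no member was called (0; 4 at an unadjusted p under 0.05), without UT 2 the count was 1, and without UT 1 or IDMB+EGF+TCDD 1 it was 3. It was 8 without either IDMB+TCDD array. The Gapdh ratio was lowest in this group, and with it as a covariate 0 were called (10 at an unadjusted p under 0.05), with a median of 0.74. With the actin ratio 3 were called.

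EGF and TCDD together gave a mean log2 intensity of 12.07 over the 33 genes, beside 12.08 with EGF alone. Against UT 16 of the 33 genes were called higher and 0 lower (limma; 25 and 0 at an unadjusted p under 0.05), against 2.96% of all probes, with a median difference of 1.14. On both arrays 28 of the 33 lay above all UT arrays, against 19.9% of all probes. Without UT 2 the count was 2, without EGF+TCDD 1 it was 1 and without EGF+TCDD 2 it was 0 (21 at an unadjusted p under 0.05). The Gapdh ratio was high in this group (2.34 to 2.71), and with it as a covariate 0 were called (16 at an unadjusted p under 0.05), while the median was 1.16. With the actin ratio 1 was called. The 3 comparisons with UT share its 3 arrays. Whether the effects of EGF and TCDD added up was tested by their interaction without IDMB, the log2 difference that EGF made with TCDD minus the one it made without. It was below 0 for 30 of the 33 genes, with a median of -0.72 against -0.02 over all probes. No member was called (0; 7 at an unadjusted p under 0.05), and 0.364% of all probes were. The smallest adjusted p was that of Mcm7, with an interaction of -1.85 (95% interval -2.77 to -0.94, adjusted p = 0.0685). For Mcm4 it was -1.65 (interval -2.54 to -0.75, adjusted p = 0.0835). Without UT 1 there were 2 calls, and without UT 3 there was 1.

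IDMB by itself moved few of these genes away from UT. Orc2 and Pcna were called higher, and 0 were called lower (limma; 3 higher and 2 lower at an unadjusted p under 0.05), while 14.1% of all probes were called in either direction. The median log2 difference was -0.22 against -0.01 over all probes, with 24 of the 33 below 0. The count was 1 without UT 2, UT 3 or IDMB 2, and with the actin ratio as a covariate.

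Over the 4 backgrounds (no other agent, EGF, TCDD and both, weighted equally), IDMB went with lower levels of most replication genes. Of the 33 genes 23 were called lower and 0 higher (limma; 27 and 0 at an unadjusted p under 0.05), against 18.6% of all probes called lower, and the median log2 effect was -0.69 against -0.04. The largest were those of Cdc6 at -1.42, Uhrf1 at -1.39 and Mcm3 at -1.26. Of the 23 genes 21 were called in every fit that left out 1 array, all but Orc1 and Ccne1, and the count ran from 21 to 26. With the Gapdh ratio as a covariate 24 were called. The actin ratio was higher with IDMB and overlapped little with the other arrays, and with it as a covariate 1 member was called, Mcm2, with a median of -0.49, while the calls among all probes went from 2432 to 448. Set against EGF alone, IDMB+EGF had lower levels of all 33 genes on both arrays, which held for 28.8% of all probes. Of the 33 genes 10 were called lower and 0 higher (limma; 18 and 0 at an unadjusted p under 0.05), against 5.27% of all probes called lower, with a median difference of -0.88. The log2 difference was -2.00 for Uhrf1, -1.87 for Cdc6 and -1.64 for Mcm2. The other 7 called were Mcm3, Mcm4, Orc2, Pola1, Rfc3, Rfc4 and Rrm2. Without EGF 2 the count was 3, without IDMB+EGF 1 it was 4, and Mcm2 and Uhrf1 were called in every fit that left out 1 array. With the actin ratio as a covariate 3 were called.

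**Figure D2:**
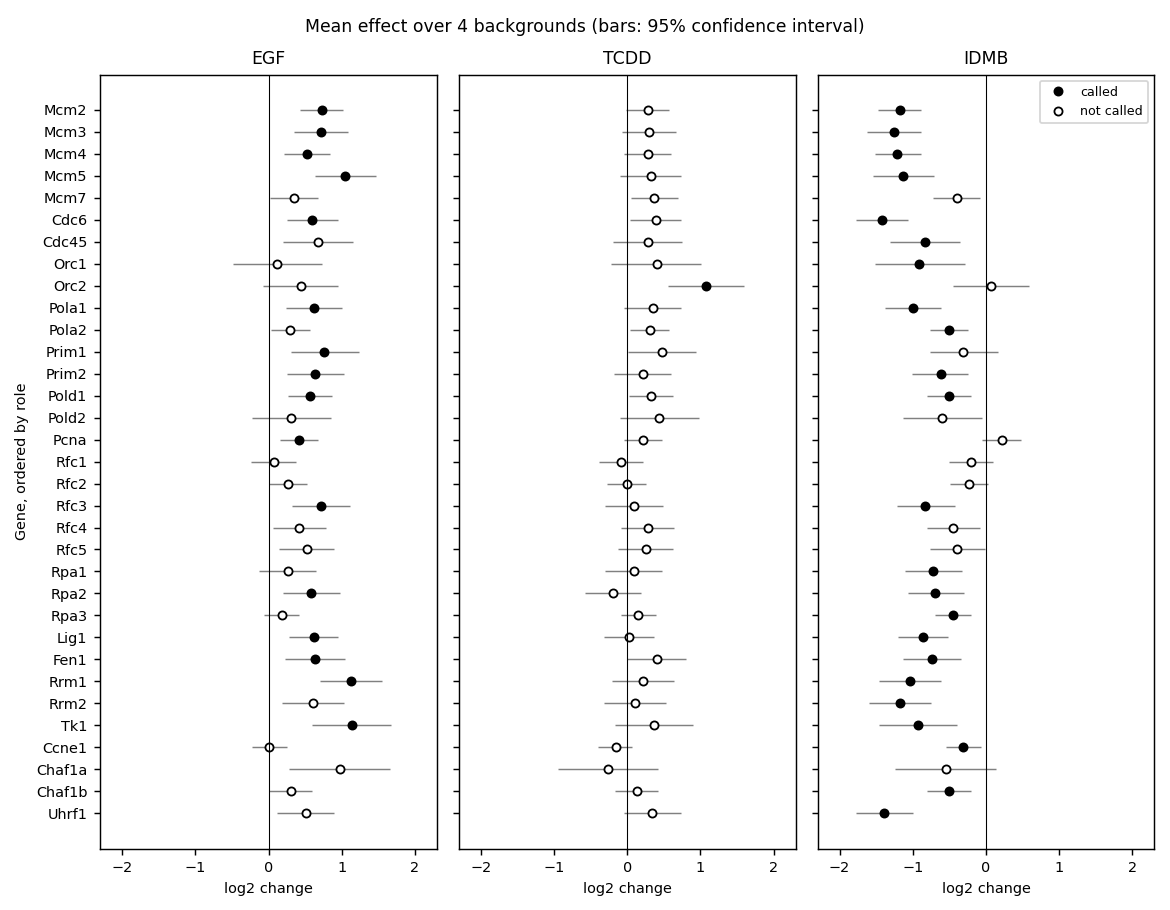
Mean log2 effect of EGF, TCDD and IDMB on each of the 33 tested genes, each over its 4 backgrounds, with 95% intervals from limma; filled points are called. The effects of EGF lie above 0 for all 33 genes, those of IDMB lie below 0 for 31 of 33, and for TCDD Orc2 is the 1 gene called.

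Added to IDMB without TCDD, EGF gave none of the 33 genes called higher when all 18 arrays were fitted. Its addition to IDMB+TCDD was not tested by itself. Against IDMB, IDMB+EGF had 0 genes called higher and 1 lower, Orc2 (limma; 6 higher and 2 lower at an unadjusted p under 0.05), and 3.80% of all probes were called. The median log2 difference was 0.38, against 0.00 over all probes, and 25 of the 33 were above 0. Intervals remained wide: the difference was 1.27 for Tk1 (95% interval 0.26 to 2.29) and 1.11 for Mcm5 (0.31 to 1.91). It was 0.16 for Cdc6 (-0.51 to 0.83) and 0.04 for Uhrf1 (-0.70 to 0.78). The count was 0 without IDMB 2 or either IDMB+EGF array, and 2 without IDMB 3. Pold1, the catalytic subunit of polymerase delta, at 0.95 (adjusted p = 0.0618) over all arrays, was called higher without IDMB 1 (adjusted p = 0.0457), where Orc2 was not called, and without IDMB 3 (adjusted p = 0.0447). The interaction, which is the difference EGF made with IDMB minus the one without, was below 0 for 31 of the 33 genes, with a median of -0.84 against -0.01 over all probes. It was called for Orc2 alone among the members (11 at an unadjusted p under 0.05), against 0.252% of all probes. For Mcm2 it was -1.20 (95% interval -1.99 to -0.40, adjusted p = 0.194), and for Rfc4 -1.50 (-2.49 to -0.51, adjusted p = 0.191), so for single genes other than Orc2 a smaller response in IDMB was not established. Without EGF 1 or IDMB+EGF 1 the count was 0 (11 and 8 at an unadjusted p under 0.05). Averaged over all 4 backgrounds, EGF went with 16 genes called higher and 0 lower (25 and 0 at an unadjusted p under 0.05), against 7.06% of all probes called higher, and the median was 0.57. Mcm2, Mcm5, Rrm1 and Tk1 were called in every fit that left out 1 array. The count was 4 without TCDD 2, 6 without EGF 2 or IDMB+EGF+TCDD 1, 7 without EGF+TCDD 2 or IDMB+TCDD 2, and 10 without UT 2 or EGF+TCDD 1. With either ratio as a covariate 0 members were called, as were 0 of all probes, at medians of 0.51 (Gapdh; 5 at an unadjusted p under 0.05) and 0.63 (actin; 16).

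**Figure D3:**
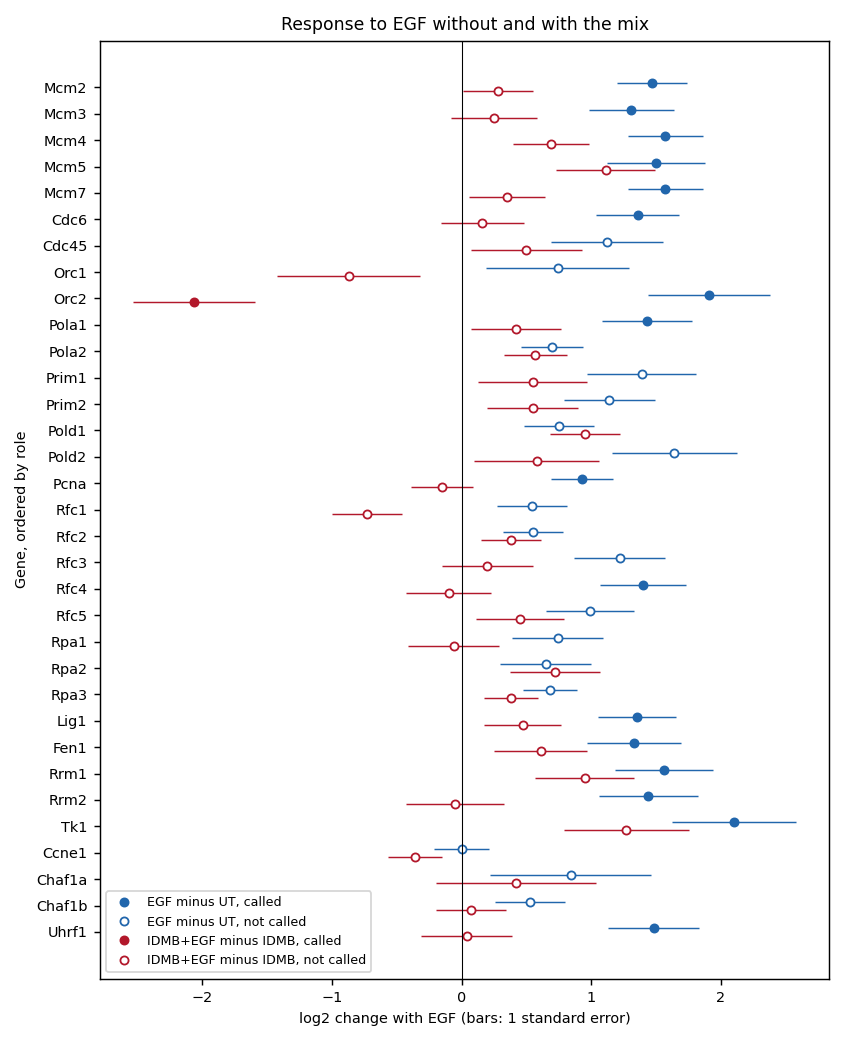
Log2 difference made by EGF without IDMB (blue, EGF minus UT) and with IDMB (red, IDMB+EGF minus IDMB), on the x axis, for each of the 33 tested genes (y axis, ordered by role); bars are 1 standard error and filled points are called. For 31 of the 33 genes the red point lies left of the blue one, and for Orc2 they lie at -2.06 and 1.91.

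Added to IDMB without EGF, TCDD changed none of the 33 genes past the threshold, and its addition to IDMB+EGF was not tested by itself. Against IDMB, IDMB+TCDD had 0 of 33 called (limma; 2 higher and 3 lower at an unadjusted p under 0.05), against 6.59% of all probes, with a median of 0.09. The 2 arrays stood apart, with a mean log2 intensity of 11.28 and 10.44, and without IDMB+TCDD 1 there was 1 call, Chaf1a. Averaged over the 4 backgrounds, TCDD gave Orc2 as its only call. Orc2 passed the filter on dim probes only through EGF+TCDD (mean log2 9.98), a group with TCDD, so this call is not independent of the filter. The count of 1 stood against 5.54% of all probes called (6 members at an unadjusted p under 0.05, all higher), and the median was 0.28. That count was 2 without UT 1 or IDMB+TCDD 1 and 0 without IDMB+EGF+TCDD 1 (1 at an unadjusted p under 0.05).

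The helicase genes were called higher with EGF and, for most, lower over IDMB. Of the 6 Mcm genes of the ring 5 were tested and all 5 were called higher with EGF, by log2 1.31 to 1.57, 3 with TCDD and 5 with EGF+TCDD (1.27 to 1.69), and 4 were called lower over IDMB, Mcm7 being the exception at -0.40 (adjusted p = 0.0534). Mcm2 read 2339, 1822 and 2364 on the UT arrays, 4902 and 7307 with EGF, 4733 and 3232 with TCDD and 5885 and 5954 with EGF+TCDD. With IDMB, Mcm2 read 1208, 1879 and 1765 alone, 1803 and 2050.3 with EGF, 2036 and 1229 with TCDD and 2184 and 2508 with both. All 6 arrays with EGF or TCDD and no IDMB lay above all 3 UT arrays and all 9 IDMB arrays. Its log2 difference with EGF was 1.47 (SE 0.27, adjusted p = 0.00685; 0.129 without EGF 2), its mean EGF effect was 0.73 (SE 0.14, adjusted p = 0.00391), and its mean IDMB effect was -1.18 (SE 0.14, adjusted p = 6.7e-06). Mcm3 read 3479, 3409.8 and 5947 on the UT arrays, 8694 and 12052 with EGF, 10528 and 6218 with TCDD and 10675 and 11702 with EGF+TCDD. With IDMB, Mcm3 read 2132, 2799.5 and 4352 alone, 3207 and 3875 with EGF, 3369 and 1861 with TCDD and 4756 and 4141 with both. The arrays with EGF were again above UT without overlap, and UT 3 lay close to TCDD 2. Mcm3 differed with EGF by 1.31 (SE 0.33, adjusted p = 0.0292; 0.0733 without UT 1, 0.118 without UT 2, 0.0845 without EGF 1 and 0.282 without EGF 2) and with IDMB, on average, by -1.26 (SE 0.17, adjusted p = 3.39e-05). Its second, dimmer probe gave 1.42 with EGF and -1.13 over IDMB. Mcm4 read 3105, 2410.5 and 3550.4 on the UT arrays, 8230 and 9475 with EGF, 10686 and 5511 with TCDD and 6824 and 7686 with EGF+TCDD. With IDMB, Mcm4 read 1952, 1769.7 and 2659 alone, 3509 and 3256 with EGF, 3576 and 2149 with TCDD and 3086 and 2230.4 with both. TCDD 1 was well above TCDD 2, and both lay above UT. Its difference was 1.57 (SE 0.29, adjusted p = 0.00685; 0.0982 without EGF 2) with EGF, 1.36 (SE 0.29, adjusted p = 0.0103; 0.0508 without UT 2 and 0.16 without TCDD 1) with TCDD and -1.21 (SE 0.15, adjusted p = 1.15e-05) for the mean of IDMB. Mcm6 failed the filter on dim probes, with intensities of 24 to 322.

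**Figure D4:**
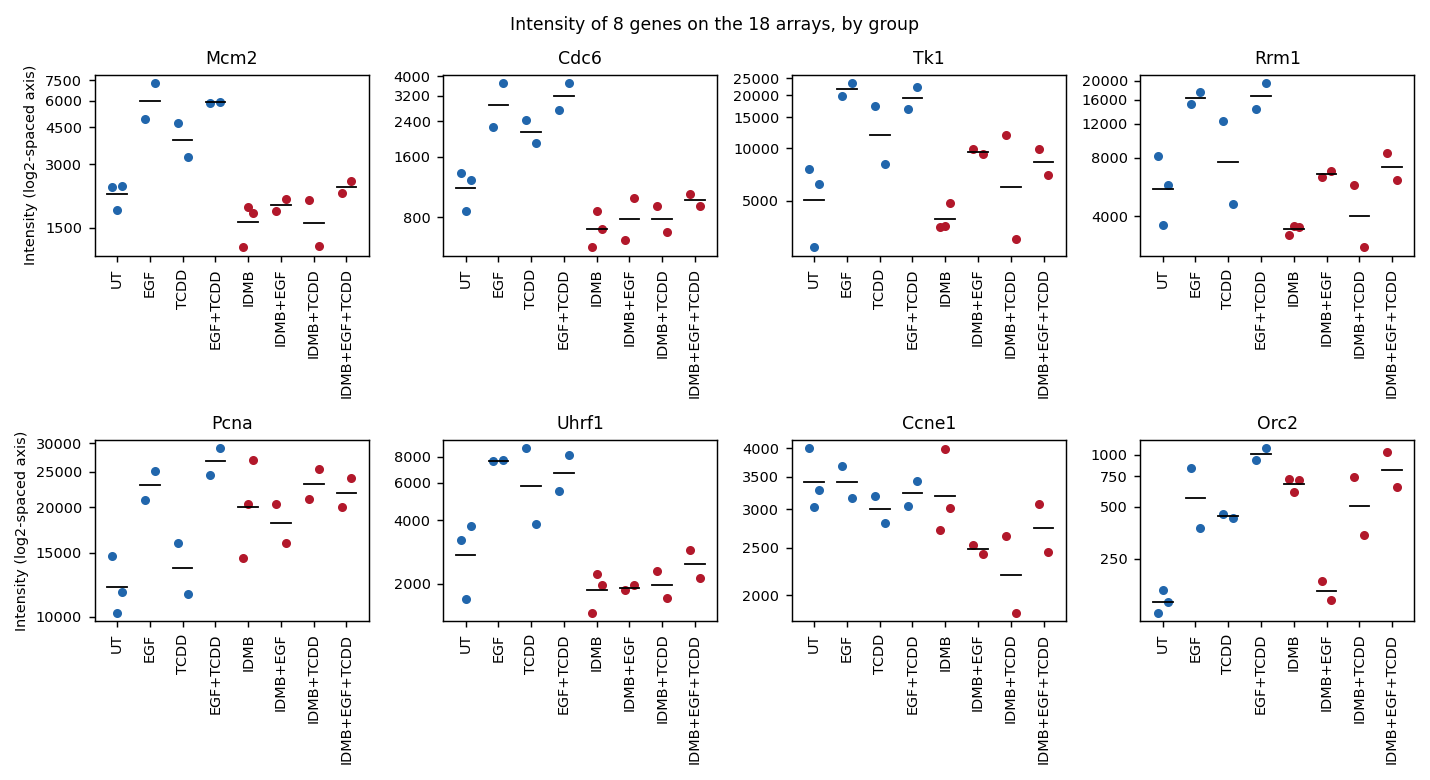
Intensity (y axis, log2-spaced) on each array, by group (x axis), for Mcm2, Cdc6, Tk1, Rrm1, Pcna, Uhrf1, Ccne1 and Orc2; points are arrays and bars are the mean of the group's log2 values. Mcm2, Cdc6 and Uhrf1 are highest on the arrays with EGF or TCDD and no IDMB, Pcna is near or above UT with IDMB, Ccne1 is nearly level, and Orc2 is lowest in UT and IDMB+EGF.

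Among the genes that load and fire origins, Cdc6, the loader of the Mcm ring, followed the helicase genes, and Orc2 did not. Cdc45, a helicase cofactor, and Cdc6 and Orc1, a subunit of the origin recognition complex, were called lower over IDMB, and Cdc6 and Orc2, another of its subunits, were called higher with EGF. Cdc6 read 1324, 858 and 1231 on the UT arrays, 2239 and 3687 with EGF, 2424 and 1868 with TCDD and 2722 and 3713 with EGF+TCDD. With IDMB, Cdc6 read 568, 866 and 704 alone, 616 and 998 with EGF, 911 and 674 with TCDD and 1046 and 912 with both. Every array with EGF or TCDD and no IDMB was above every other array. Its difference was 1.36 (SE 0.32, adjusted p = 0.0222; 0.0963 without UT 2 and 0.279 without EGF 2) with EGF and -1.42 (SE 0.17, adjusted p = 5.91e-06) for the mean of IDMB. Orc1 read 410.4, 367 and 676 on the UT arrays, 767 and 794 with EGF, 721 and 578 with TCDD and 787 and 1094 with EGF+TCDD. With IDMB, Orc1 read 342, 722 and 309 alone, 55 and 374 with EGF, 610.4 and 278 with TCDD and 648 and 294 with both. IDMB+EGF 1 was below the floor, and the IDMB groups overlapped with UT. Orc1 passed the filter only through EGF+TCDD (mean log2 9.86), a group without IDMB, so its call over IDMB is not independent of the filter. Averaged over IDMB, it changed by -0.91 (SE 0.29, adjusted p = 0.0231; 0.0522 without TCDD 1, 0.064 without IDMB+EGF 1, 0.067 without IDMB+TCDD 2 and 0.0655 without IDMB+EGF+TCDD 2). For Cdc45 the mean IDMB effect was -0.83 (SE 0.23, adjusted p = 0.0091) and the EGF difference 1.12 (SE 0.43, adjusted p = 0.141). Orc2 read 122, 164 and 139.6 on the UT arrays, 844 and 377 with EGF, 454 and 433 with TCDD and 929.6 and 1095 with EGF+TCDD. With IDMB, Orc2 read 723, 611 and 715 alone, 185 and 144 with EGF, 741 and 342 with TCDD and 1039 and 648 with both. It was high with EGF, TCDD or IDMB singly, and back near the floor with IDMB and EGF together, but not when TCDD was there too. Against UT, where 2 of 3 arrays were at the floor so that fitted changes understate the difference, it was higher by 1.91 (SE 0.47, adjusted p = 0.0255; 0.0764 without UT 2, 0.251 without EGF 1 and 0.0836 without EGF 2) with EGF and 2.18 (SE 0.42, adjusted p = 0.00174) with IDMB. IDMB+EGF against IDMB gave -2.06 (SE 0.47, adjusted p = 0.0219; 0.0509 without IDMB 1, 0.0521 without IDMB 2, 0.0994 without IDMB+EGF 1 and 0.0849 without IDMB+EGF 2), and the interaction of EGF and IDMB was -3.97 (SE 0.66, adjusted p = 0.0196; 0.0769 without EGF 1 and 0.053 without IDMB+EGF 1). Its mean TCDD effect was 1.07 (SE 0.24, adjusted p = 0.0159; 0.0518 without IDMB+EGF+TCDD 1). A second Orc2 probe failed the filter, and with the mean of both probes the interaction, the mean TCDD effect and the difference between IDMB+EGF and IDMB were not called. The brighter Orc2 probe passed the filter only through EGF+TCDD, so its calls in comparisons that use this group, such as the mean TCDD effect, are not independent of the filter.

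Polymerase and primase genes had fewer calls with EGF alone and more once the 4 backgrounds were averaged. Of 6 tested, 1 was called with EGF (Pola1, the catalytic subunit of DNA polymerase alpha), 3 with EGF+TCDD, 4 for the mean EGF effect and 4, lower, for the mean IDMB effect. Pola1 read 1598, 1034 and 1734 on the UT arrays, 2774 and 5252 with EGF, 3951 and 2232 with TCDD and 4058 and 3492 with EGF+TCDD. With IDMB, Pola1 read 1255, 1188 and 987 alone, 1311 and 1771 with EGF, 1699 and 1051 with TCDD and 2161 and 1254 with both. EGF 2 and TCDD 1 were well above their partner arrays. Its difference was 1.43 (SE 0.35, adjusted p = 0.0255; 0.113 without UT 2 and 0.336 without EGF 2) with EGF and -1.0 (SE 0.18, adjusted p = 0.000487) for the mean of IDMB. Prim1, the catalytic subunit of primase, read 1450.3, 564 and 756 on the UT arrays, 2092 and 2398 with EGF, 2249.8 and 1266 with TCDD and 2682 and 2853 with EGF+TCDD. With IDMB, Prim1 read 1301, 907 and 951 alone, 2015 and 1148 with EGF, 2145 and 849 with TCDD and 1938 and 1644 with both. UT 1 stood above the other UT arrays, and the IDMB arrays overlapped with those without it. Its differences were 1.39 (SE 0.42, adjusted p = 0.0602) with EGF and 0.76 (SE 0.22, adjusted p = 0.0306; over 0.05 in 7 of the 18 fits with 1 array left out, up to 0.0916 without TCDD 2) for the mean of EGF, and for IDMB -0.31 (95% interval -0.77 to 0.16). Prim2, the large subunit of primase, read 1062, 1064 and 1569 on the UT arrays, 2385 and 2998 with EGF, 2967 and 1436 with TCDD and 2346 and 2585 with EGF+TCDD. With IDMB, Prim2 read 1227, 826 and 1126 alone, 1719 and 1362 with EGF, 1643 and 728 with TCDD and 1679 and 1664 with both. TCDD 2 and IDMB+TCDD 2 were low beside their partners. Its mean IDMB effect was -0.62 (SE 0.18, adjusted p = 0.0148). Pola2, the regulatory subunit of polymerase alpha, differed by 0.70 with EGF on its brighter probe, and by -0.50 on a dimmer one, for which the mean EGF effect was -1.10 (adjusted p = 0.0286; over 0.05 in 6 of the 18 fits with 1 array left out, up to 0.0875 without TCDD 2), so the direction for Pola2 is uncertain. Pold1, the catalytic subunit of polymerase delta, was called for the means of EGF (0.57 (SE 0.14, adjusted p = 0.0173; 0.0561 without TCDD 2)) and of IDMB (-0.50 (SE 0.14, adjusted p = 0.012)).

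The clamp and its loader had few calls. Of the 6 genes, all had differences above 0 with EGF, from 0.54 (Rfc1) to 1.40 (Rfc4), and 2 were called with EGF, the clamp Pcna and the loader subunit Rfc4, and 1 was called lower over IDMB, Rfc3. Pcna read 14697, 10269 and 11722 on the UT arrays, 20971 and 25180.4 with EGF, 15991 and 11574 with TCDD and 24566 and 29076 with EGF+TCDD. With IDMB, Pcna read 14521, 20475 and 26965 alone, 20414 and 15981 with EGF, 21021 and 25498 with TCDD and 20009.8 and 24056 with both. The arrays with IDMB alone ran from the UT level to above the EGF level, and every array with the mix was near or above the highest UT array, unlike for most members. Its difference was 0.93 (SE 0.24, adjusted p = 0.0312; 0.127 without UT 2, 0.0535 without UT 3, 0.0961 without EGF 1 and 0.275 without EGF 2) with EGF and 0.73 (SE 0.21, adjusted p = 0.0296; 0.121 without UT 2, 0.0771 without UT 3, 0.0828 without IDMB 2 and 0.144 without IDMB 3) with IDMB, while its mean IDMB effect was 0.22 (95% interval -0.05 to 0.48, adjusted p = 0.202). Rfc4 read 1055, 728 and 858 on the UT arrays, 1859 and 2842 with EGF, 2267 and 1219 with TCDD and 1747 and 1922 with EGF+TCDD. With IDMB, Rfc4 read 1272, 1203 and 858 alone, 977 and 1068 with EGF, 1550.4 and 857 with TCDD and 1583 and 1193 with both. The values with IDMB lay around and above those of UT, and both IDMB+EGF arrays were within the range of IDMB alone. Its difference was 1.40 (SE 0.33, adjusted p = 0.0229; 0.096 without UT 2, 0.0529 without EGF 1 and 0.262 without EGF 2) with EGF. Rfc3 read 1072, 1089.5 and 932 on the UT arrays, 2069 and 2792 with EGF, 1327 and 831 with TCDD and 2081 and 2541 with EGF+TCDD. With IDMB, Rfc3 read 788, 817 and 699 alone, 524 and 1479 with EGF, 842 and 864 with TCDD and 1189 and 928 with both. It was high on all 4 arrays with EGF and no IDMB, near UT with TCDD, and split on the IDMB+EGF arrays. Its mean EGF effect was 0.71 (SE 0.19, adjusted p = 0.0205; 0.0599 without EGF 2, 0.0639 without TCDD 2 and 0.0537 without IDMB+EGF+TCDD 1) and its mean IDMB effect -0.83 (SE 0.19, adjusted p = 0.00254). Rfc1, the large subunit of the loader, had a mean IDMB effect of -0.21 (limma adjusted p = 0.294) on its brighter probe. A dimmer probe gave -1.02 (adjusted p = 0.0209). For IDMB+EGF against EGF they gave -0.69 (adjusted p = 0.16) and -2.47 (adjusted p = 0.0253), and for IDMB against UT 0.58 and -1.04, neither called. Without TCDD 1 or EGF+TCDD 1 the dimmer probe's mean IDMB effect was -0.84 or -0.93 and not called. Its call against EGF was lost without EGF 1 or either IDMB+EGF array. Without EGF 2 the dimmer probe failed the filter, so it passed only through EGF, a group without IDMB. These calls are therefore not independent of the filter.

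The 3 subunits of Rpa, which coats single-stranded DNA, were called lower over IDMB and not called with EGF, TCDD or EGF+TCDD against UT. Rpa1 read 8891, 4059 and 6024 on the UT arrays, 9316 and 10794 with EGF, 9904 and 5757 with TCDD and 7475 and 11668 with EGF+TCDD. With IDMB, Rpa1 read 6049.9, 4149 and 4683 alone, 6139.5 and 3603 with EGF, 6716 and 3583 with TCDD and 5709.9 and 4639 with both. UT 1 was well above UT 2 and just below both EGF arrays. Over IDMB the mean effect was -0.72 (SE 0.18, adjusted p = 0.00638). Rpa2 read 1026, 1123 and 1497 on the UT arrays, 1606 and 2206 with EGF, 1152 and 1212 with TCDD and 1821 and 1896 with EGF+TCDD. With IDMB, Rpa2 read 1062, 834 and 623 alone, 1144 and 1589 with EGF, 1029 and 524 with TCDD and 1226 and 679 with both. The EGF arrays were above the UT arrays, and the TCDD arrays were among them. Its mean IDMB effect was -0.69 (SE 0.18, adjusted p = 0.00783), and its difference with EGF alone was 0.65 (95% interval -0.08 to 1.38). For the mean EGF effect Rpa2 was called higher, at 0.58 (limma adjusted p = 0.0434). That call was lost in 12 of the 18 fits with 1 array left out. Rpa3 read 2654, 2159.8 and 2326 on the UT arrays, 4073 and 3554 with EGF, 4077 and 3312 with TCDD and 3592 and 3969.5 with EGF+TCDD. With IDMB, Rpa3 read 2572, 1756 and 2200.5 alone, 2736 and 2869 with EGF, 3160.5 and 2474 with TCDD and 2602 and 1778 with both. All 6 arrays with EGF or TCDD and no IDMB were above UT. Its mean IDMB effect was -0.45 (SE 0.11, adjusted p = 0.00566) and its EGF difference 0.68 (95% interval 0.23 to 1.14).

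Both genes that finish the lagging strand were called in both directions of treatment, higher with EGF and lower over IDMB. Lig1, the ligase that seals the pieces, read 2226, 1495 and 1821 on the UT arrays, 4153 and 5169 with EGF, 4960 and 2234 with TCDD and 3342 and 4581 with EGF+TCDD. With IDMB, Lig1 read 1751, 1486 and 1781 alone, 2424 and 2192 with EGF, 1811 and 1087 with TCDD and 2043 and 1721 with both. TCDD 1 was in the EGF range and TCDD 2 was level with the highest UT array. Its difference was 1.35 (SE 0.30, adjusted p = 0.0196; 0.0884 without UT 2, 0.0725 without EGF 1 and 0.193 without EGF 2) with EGF and -0.86 (SE 0.16, adjusted p = 0.00054) for the mean of IDMB. Fen1, which trims the flaps before ligation, read 912, 1095 and 1669.6 on the UT arrays, 2692 and 3316 with EGF, 3974 and 2113 with TCDD and 2871 and 4643 with EGF+TCDD. With IDMB, Fen1 read 1092, 939.9 and 1669 alone, 1484 and 2239 with EGF, 1785 and 1032 with TCDD and 1788 and 1488 with both. The 6 treated arrays without IDMB were all above UT, and IDMB+EGF 2 was the highest of those with it. Its difference was 1.33 (SE 0.36, adjusted p = 0.0396; 0.105 without UT 1, 0.127 without UT 2, 0.122 without EGF 1 and 0.293 without EGF 2) with EGF, 1.29 (SE 0.36, adjusted p = 0.0402; over 0.05 in 7 of the 18 fits with 1 array left out, up to 0.361 without TCDD 1) with TCDD and -0.74 (SE 0.19, adjusted p = 0.00648) for the mean of IDMB.

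Tk1 and Rrm1, enzymes of nucleotide supply, had the largest mean EGF effects of the 33 genes. Tk1, the thymidine kinase of S phase, and Rrm1 and Rrm2, the large and small subunits of ribonucleotide reductase, were all called higher with EGF and lower over IDMB. Tk1 read 7588, 2718 and 6252 on the UT arrays, 19849.6 and 23603 with EGF, 17401 and 8094 with TCDD and 16629.7 and 22207 with EGF+TCDD. With IDMB, Tk1 read 3535, 3607 and 4839 alone, 9908 and 9226 with EGF, 11874 and 3025 with TCDD and 9908 and 7033 with both. Both IDMB+EGF arrays were above all 3 IDMB arrays, and IDMB+TCDD 1 and 2 were far apart. Its difference was 2.10 (SE 0.48, adjusted p = 0.0206; 0.0916 without UT 2, 0.0916 without EGF 1 and 0.175 without EGF 2) with EGF, 1.14 (SE 0.25, adjusted p = 0.00934) for the mean of EGF and -0.93 (SE 0.25, adjusted p = 0.00898) for the mean of IDMB. Rrm1 read 8190.2, 3598 and 5774 on the UT arrays, 15136 and 17543 with EGF, 12438 and 4630.4 with TCDD and 14348 and 19576 with EGF+TCDD. With IDMB, Rrm1 read 3186, 3563 and 3526 alone, 6377 and 6823 with EGF, 5782 and 2756 with TCDD and 8462 and 6152 with both. Both EGF arrays of each background were above both or all arrays of the same background without EGF. Its difference was 1.56 (SE 0.38, adjusted p = 0.0263; 0.118 without UT 2, 0.107 without EGF 1 and 0.211 without EGF 2) with EGF, 1.13 (SE 0.20, adjusted p = 0.00269) for the mean of EGF and -1.04 (SE 0.20, adjusted p = 0.000797) for the mean of IDMB. Rrm2 read 3701, 2001 and 3435 on the UT arrays, 6996 and 9075 with EGF, 6129 and 4211 with TCDD and 8399 and 6203 with EGF+TCDD. With IDMB, Rrm2 read 2689, 3024 and 1991 alone, 2231 and 2694 with EGF, 3466 and 1066 with TCDD and 2887 and 2671 with both. In contrast to Rrm1, its IDMB+EGF arrays were within the range of IDMB alone. Its difference was 1.44 (SE 0.38, adjusted p = 0.0361; 0.15 without UT 2, 0.11 without EGF 1 and 0.291 without EGF 2) with EGF and -1.17 (SE 0.20, adjusted p = 0.000269) for the mean of IDMB. The mean EGF effect was 0.61 (adjusted p = 0.0563). Dut, which removes dUTP, failed the filter, with intensities of 86 to 817.

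Cyclin E1, whose kinase acts at the start of S phase, differed from most members. Ccne1 read 4005, 3031 and 3292 on the UT arrays, 3676 and 3162 with EGF, 3190.5 and 2818 with TCDD and 3047 and 3431 with EGF+TCDD. With IDMB, Ccne1 read 2714, 3986 and 3012 alone, 2538 and 2423 with EGF, 2639 and 1839.8 with TCDD and 3079 and 2451 with both. The EGF, TCDD and EGF+TCDD arrays all lay within or just below the UT range. Its difference was 0.00 with EGF (95% interval -0.46 to 0.45), an interval that leaves out the median of the members, 1.31. Its mean IDMB effect was -0.31 (SE 0.11, adjusted p = 0.043; over 0.05 in 14 of the 18 fits with 1 array left out, up to 0.125 without IDMB+TCDD 2), and with the actin ratio as a covariate it was 0.05. Ccne2 failed the filter, with intensities of 140 to 587. Of the genes that carry chromatin marks through replication, Uhrf1, which brings the maintenance DNA methyltransferase to new DNA, was called higher with EGF, while Chaf1a and Chaf1b, subunits of the assembly factor that loads histones behind the fork, were not. Uhrf1 read 3237, 1703 and 3759 on the UT arrays, 7595 and 7717 with EGF, 8777 and 3851 with TCDD and 5494 and 8182 with EGF+TCDD. With IDMB, Uhrf1 read 1458, 2236 and 1982 alone, 1867 and 1964 with EGF, 2296 and 1709 with TCDD and 2893 and 2125 with both. Every array with EGF or TCDD and no IDMB was above every other array. Its difference was 1.48 (SE 0.35, adjusted p = 0.0235; 0.101 without UT 2, 0.116 without EGF 1 and 0.171 without EGF 2) with EGF and -1.39 (SE 0.18, adjusted p = 2.4e-05) for the mean of IDMB. Chaf1b read 1084, 1213 and 1787 on the UT arrays, 1934 and 1893 with EGF, 1897 and 1593 with TCDD and 1564 and 2279.5 with EGF+TCDD. With IDMB, Chaf1b read 1031, 1389.9 and 1038 alone, 1083 and 1323 with EGF, 1189 and 886 with TCDD and 1492 and 1438 with both. UT 3 was close to both EGF arrays and above TCDD 2. Over IDMB it changed by -0.51 (SE 0.14, adjusted p = 0.0103). Chaf1a differed with EGF by 0.84 (95% interval -0.47 to 2.15) and was near the floor on IDMB+TCDD 2, at 175, against 1745 on IDMB+TCDD 1.

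Set beside the promoters shown above, 7 of the 15 genes called with EGF that had a promoter entry held the E2F letters (Mcm3, Mcm5, Mcm7, Cdc6, Pola1, Lig1 and Uhrf1), and so did 3 of the 15 tested genes that were not called (Orc1, Pold1 and Rfc3). Tk1, with the largest difference, and Rrm1 and Rrm2 were among the called genes without these letters in the window.

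A wider list of 71 replication genes, none of them a member and also chosen with earlier results of these data known, gave counts of the same kind. On the array were 51, of which 45 were tested. With EGF 16 were called higher and 1 lower, with TCDD 4 and 1, with EGF+TCDD 12 and 0, and over IDMB 3 higher and 25 lower. Of all probes 3.59% were called higher and 2.58% lower with EGF, 3.88% and 3.80% with TCDD, 2.96% and 2.44% with EGF+TCDD, and 15.5% and 18.6% over IDMB. IDMB+EGF against EGF had 2 higher and 11 lower (all probes, 5.52% and 5.27%), and IDMB+EGF against IDMB had 0 called (limma; 6 higher and 2 lower at an unadjusted p under 0.05; all probes, 3.80% in either direction). IDMB+TCDD against IDMB had Shmt1 (-1.79) and Samhd1 (-0.87) called lower (all probes, 6.59% in either direction). Most fits that left out 1 array did not keep these calls. With EGF the largest were Asf1b, a histone chaperone, at 2.35 (SE 0.59, adjusted p = 0.0287; 0.124 without UT 2, 0.0997 without EGF 1 and 0.247 without EGF 2), and Pole2, a subunit of DNA polymerase epsilon, at 2.20 (SE 0.45, adjusted p = 0.0107; 0.0768 without EGF 1 and 0.121 without EGF 2). Hells, a chromatin remodeller, followed at 1.91 (SE 0.51, adjusted p = 0.0351; 0.133 without UT 2, 0.0631 without UT 3, 0.161 without EGF 1 and 0.217 without EGF 2), and Cdca7, its partner, at 1.89 (SE 0.31, adjusted p = 0.00488; 0.0885 without EGF 2). Pole2 read 332, 461 and 196 on the UT arrays, 1401 and 1446 with EGF, 1704 and 920.5 with TCDD and 1734 and 1649 with EGF+TCDD. With IDMB, Pole2 read 250.3, 69 and 118 alone, 333 and 404 with EGF, 436 and 314 with TCDD and 785 and 543 with both. All 6 treated arrays without IDMB were above all others. Pole2 passed the filter on dim probes only through these groups, so its calls against UT and over IDMB are not independent of the filter. Its difference with TCDD was 2.01 (SE 0.45, adjusted p = 0.0133; 0.164 without TCDD 1) and its mean IDMB effect, with 2 IDMB arrays below the floor, was -1.48 (SE 0.23, adjusted p = 0.000125). Samhd1, which breaks down DNA building blocks that ribonucleotide reductase helps to supply, went the other way. It read 2429.5, 1481 and 2799 on the UT arrays, 1334 and 1619 with EGF, 1199 and 1139 with TCDD and 2198 and 1652 with EGF+TCDD. With IDMB, Samhd1 read 9837, 7834 and 10159 alone, 8374 and 10079 with EGF, 4549 and 5594 with TCDD and 4279.7 and 3251 with both. Every array with IDMB was above every array without it, and within IDMB those with TCDD were lower. Its difference with IDMB was 2.09 (SE 0.22, adjusted p = 8.01e-06), its mean IDMB effect 1.95 (SE 0.13, adjusted p = 1.07e-08) and its mean TCDD effect -0.67 (SE 0.13, adjusted p = 0.00586). Rnaseh2b, a subunit of an RNase that removes ribonucleotides from DNA, was the 1 gene of the list called lower with IDMB alone, by -1.01 (SE 0.22, adjusted p = 0.0048). A list of 24 mitosis genes, of which 20 were tested, gave 15 called higher and 0 lower with EGF (median 2.15), 0 called with TCDD (limma; 10 at an unadjusted p under 0.05, median 0.95), 18 higher and 0 lower for the mean EGF effect, and 4 lower and 0 higher over IDMB (median -0.53). Of all probes 3.59% were called higher with EGF, 7.68% in either direction with TCDD and 7.06% higher for the mean EGF effect. The share called lower over IDMB was 69.7% for the replication genes and 20% for the mitosis genes, beside 18.6% of all probes, and the difference between the lists was not tested.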

How the data were processed

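Gene expression was read in C3H10T1/2 cells on 18 arrays, and the authors' deposited values are, per the labels, signal intensities on a linear scale. The mean of each array without its outer 2% on either side was 2501.4 to 2501.7, so the deposited intensities had been scaled. The sources used here do not name the software, and detection calls were not used.

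Groups came from the labels. The 33 genes tested are those whose probe reached the median log2 value (9.73) in the mean of its highest group. Orc1 and Orc2 reached it only in EGF+TCDD (9.86 and 9.98), so their calls in comparisons that use this group are not independent of the filter. Pole2, of the wider list, and the dimmer Rfc1 probe passed only through groups without IDMB, so the same limit applies to their calls. With limma 3.58.1 in R 4.3.3 a mean was fitted per group over all 18 arrays (residual degrees of freedom 10, prior 6.03, variance trend), with 66 control probes left out. All 8 groups share this spread because 6 of them hold 2 arrays. Mean effects weight the 4 backgrounds equally. Every adjusted p is limma's, by Benjamini-Hochberg within a comparison.

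The members and lists were chosen with earlier results of these data known. Any member may be named. Values on every array are given for the genes called in any comparison with the largest mean effects in their role (up to 3) or alone there in a direction, and of the wider list up to 4 genes per comparison, the largest called. Symbols came from the array annotation, where 10855 probes had 1 symbol, 396 several and 1237 none. Of 10 genes with several probes, others are named where they differ, with values for some of the comparisons.

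Alternatives were another floor, filter, normalization, probe summary or variance model, a replicate block, the Gapdh or actin ratio as a covariate, and leaving out each array. The fit was tested on simulated data. Replicate numbers are in the labels, but of 28 pairs of groups 8 had deviations that correlated over 0.1 between arrays of the same number (range -0.10 to 0.44), so the numbers were not taken to pair the arrays.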

Additional observations from a re-analysis of the deposited data

Results flagged for a closer look

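In the groups without TCDD, Orc2, a subunit of the origin recognition complex, responded to EGF in opposite directions without and with IDMB. EGF raised it by log2 1.91 against UT, while IDMB+EGF was at -2.06 against IDMB, and the test of the difference between them gave -3.97 (limma adjusted p = 0.0196). Against this, 0.252% of all probes were called in the same test. Of the 3 UT arrays 2 were at the floor. With IDMB and TCDD both present, the mean log2 of Orc2 was 8.98 without EGF and 9.68 with EGF. The call was lost without EGF 1 or IDMB+EGF 1, and with the mean of both Orc2 probes, the second of which is too dim to test.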

How the results depend on the processing

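The count of genes called lower over IDMB kept within 1.5 times of 23 under all alternatives but the actin ratio, which was chosen after the data were seen. With the actin ratio as a covariate the counts were 7 for EGF, 3 for TCDD, 1 for EGF+TCDD and 1 for IDMB, each against UT, 0 for IDMB+EGF against IDMB (limma; 8 at an unadjusted p under 0.05), 3 for IDMB+EGF against EGF, 0 for the mean EGF effect (16) and 1 for the mean IDMB effect. The mean IDMB effect on Ccne1 turned to 0.05. With the Gapdh ratio they were 5 for EGF, 0 for TCDD (10 at an unadjusted p under 0.05), 0 for EGF+TCDD (16), 0 for IDMB+EGF against IDMB (8) and 0 for the mean EGF effect (5). With no filter on dim probes, which adds dim probes to the adjustment, they were 4 for EGF, 2 for TCDD, 3 for EGF+TCDD, 1 for IDMB, 5 for IDMB+EGF against EGF and 5 for the mean EGF effect. Without the variance trend they were 10 for EGF, 3 for TCDD and 1 for IDMB, and with arrays scaled to the same median 2 for TCDD. With the mean of all probes of a gene they were 1 for IDMB, and 0 for IDMB+EGF against IDMB, the mean TCDD effect and the EGF by IDMB interaction, and Pola2 turned to -0.02 with EGF+TCDD and Asf1a to -0.09 with IDMB. For changes other than the filter's, the cause was not tested.

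The fit with a replicate block gave 10 called for TCDD, 2 for IDMB+EGF against IDMB (Orc2 lower and Pold1 higher), 1 for IDMB+TCDD against IDMB and 2 for the EGF by TCDD interaction, and no other count moved by over 1.5 times. Its 22 genes for EGF hold all 16.

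With each array left out, the counts ran from 0 to 19 for EGF, 0 to 8 for TCDD, 0 to 19 for EGF+TCDD, 1 to 3 for IDMB, 0 to 2 for IDMB+EGF against IDMB, 0 to 1 for IDMB+TCDD against IDMB, 3 to 12 for IDMB+EGF against EGF, 4 to 19 for the mean EGF effect, 0 to 2 for the mean TCDD effect, 21 to 26 for the mean IDMB effect, 0 to 2 for the EGF by TCDD interaction and 0 to 1 for the EGF by IDMB interaction. Where this left 1 array in a group, the lone array was taken to have the spread of the rest. Dim genes near the floor, such as Orc2, Orc1 and Pole2, have differences that are bounded by it.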
